A study of Mus musculus with 7 samples.

Results

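The growth factors described here are 10 secreted or shed signalling proteins linked to tissue repair, whose transcripts were measured in eosinophils sorted from muscle of IL5-Tg and WT mice. They were chosen by gene symbol, and all 10 were among the 24421 genes of the count table. They are the EGF family ligands Hbegf, Areg, Ereg and Tgfa, then Vegfa, Pdgfa and Pdgfb, then Igf1, and the cytokines Lif and Csf1. There were 4 IL5-Tg and 3 WT libraries, all from cells of muscle taken 3 days after a step that the labels call ntx and do not spell out. Per the labels, the sorted cells were CD45+ and SiglecF+, negative for NK1, Ly6G and CD3e, and passed a CD11b gate that the labels write as CD11bing. The labels give no age, strain or sex, name no promoter or cell type for the transgene, and leave unsaid whether each library is from its own mouse. P-values therefore measure only the spread between these libraries.

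Growth factors act on cells near the one that makes them. EGF family ligands are made as membrane-bound precursors, are released by proteases such as ADAM17 and bind EGFR and its relatives. VEGF-A drives the growth of blood vessels, the PDGF chains act on mesenchymal cells, and IGF-1 promotes growth of muscle fibres. LIF signals through the shared receptor chain gp130, and CSF1 supports macrophages. Eosinophils enter injured muscle, where macrophages, fibro-adipogenic progenitors and endothelial cells are other known sources of these factors.

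Counts assigned to genes ranged from 10922500 to 17447106 reads in IL5-Tg libraries and from 9665093 to 15231635 reads in WT libraries. Levels are given as CPM, counts scaled to a common library size that TMM corrects for differences in RNA composition. The Il5 transcript, which gives the mice their name, was at 338 to 447 CPM in IL5-Tg libraries, against 1.39 CPM in WT replicate 1 and 0 reads in WT replicates 2 and 3. The eosinophil markers Siglecf and Ccr3 were present in every library, Siglecf at 470 to 857 CPM in IL5-Tg and 251 to 648 CPM in WT libraries. Of the 8 eosinophil markers 3 were called by the test used below, all higher in IL5-Tg, against 0.338% of all genes tested. They were the granule protein gene Prg2, at 423 to 1122 CPM in IL5-Tg and 104 to 144 CPM in WT libraries (adjusted p by edgeR 0.0160), and the ribonuclease genes Ear1 and Ear6 (adjusted p by edgeR 0.00311 and 0.0268). Epx and Ear2 did not overlap between the genotypes either, with IL5-Tg higher, and did not pass. Of all genes tested 4.76% had groups that did not overlap with IL5-Tg higher. Siglecf, Ccr3 and Il5ra overlapped. The mean of Siglecf was higher in IL5-Tg libraries, and the means of Ccr3 and Il5ra were higher in WT libraries. Markers of other cells were present as well. The summed level of 9 fibroblast markers was 2288 to 4685 CPM in IL5-Tg libraries, against 3048, 3261 and 413 CPM in WT replicates 1, 2 and 3. In WT replicate 3 the fibroblast genes Lum and Pdgfra were at 0 and Col1a1 at 4.82 CPM, while Pi16, which holds most of the sum there, was at 372 CPM. The 10 macrophage and monocyte markers summed to 4848 to 5818 CPM in IL5-Tg and 3720 to 5267 CPM in WT libraries. Adgre1 was the largest part of that sum in every library, at 1556 to 2236 CPM in IL5-Tg and 1287 to 2459 CPM in WT libraries. C1qa was at 350 to 776 CPM in IL5-Tg libraries, against 373, 674 and 68.4 CPM in WT replicates 1, 2 and 3. C1qb, C1qc, Mrc1, Cd68 and Ms4a7 were also lowest in WT replicate 3, and Adgre1 was highest there. How much of the sum is macrophage RNA was not tested. Low counts were also unlike between libraries. The count seen most often among weakly detected genes was taken after averaging the number of genes over up to 5 neighbouring counts. It was 1, 1, 1 and 4 reads in IL5-Tg replicates 1, 2, 3 and 4, and 5, 8 and 12 reads in WT replicates 1, 2 and 3.

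Hbegf was the growth factor called as different between the genotypes with all 7 libraries, and it was higher in IL5-Tg. In 8 of 17 other settings described below it was not called. The test was the quasi-likelihood test of edgeR on the counts of all 12428 genes that passed its count filter, with p-values adjusted over all of them by the Benjamini-Hochberg method and called under 0.05. Of the 10 growth factors 7 passed the filter. Of these 1 rose, 0 fell and 6 did not pass the test, where 0.41% of all genes tested were called, 0.338% higher and 0.0724% lower. By unadjusted p under 0.05 it was 3 of 7, against 9.04% of all genes tested. DESeq2 called 1 of 7, against 1.81% of all genes tested, and limma-voom called 0 of 7, against 0.177%. Outside the 10, 81 of 101 listed genes of related pathways in the table were tested, and 0 passed by edgeR, 9 by unadjusted p under 0.05, 4 by DESeq2 and 0 by limma-voom, to be read against the same shares of all genes. The median log2 fold change of the 7 was 0.79, and 5 were positive, against a median of 0.03 over all genes tested, 6472 of them positive.

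**Figure D1:**
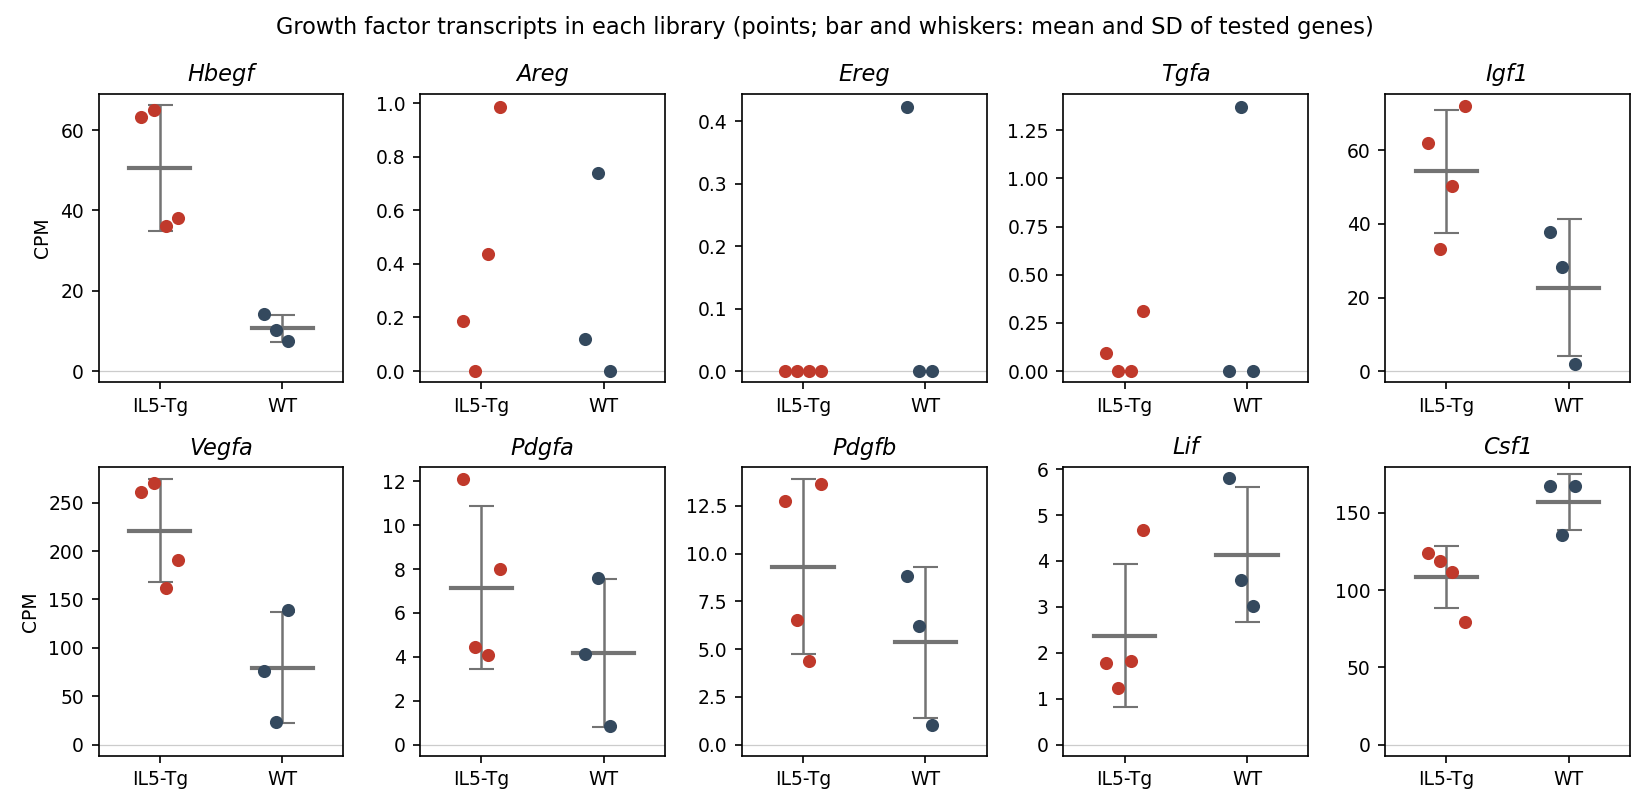
Level of each of the 10 growth factor transcripts in CPM (vertical axes, a separate linear scale per gene) in 4 IL5-Tg and 3 WT libraries, with 1 point per library and, for the 7 genes tested, the mean and SD of each group. Hbegf and Vegfa lie higher in all IL5-Tg libraries than in any WT library, Csf1 lies lower, and Areg, Ereg and Tgfa stay below 1.5 CPM everywhere.

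The promoters of Vegfa, Csf1 and Lif are shown as the stretch before the start site. Vegfa and Csf1 were the most abundant of the growth factors and lay on opposite sides of 0 in fold change. Lif shared the sign of Csf1, and none of these fold changes passed the test. The stretches are from RefSeq on GRCm38.p6, hold no annotated exon and run 5′ to 3′ on the gene's strand. They are chr17:46032378-46032627 on the minus strand for Vegfa, chr3:107760470-107760719 on the minus strand for Csf1 and chr11:4257318-4257556 on the plus strand for Lif. Capitals mark matches to GGGCGG, the core of the SP1 motif, in Vegfa and Csf1, and to TGANTCA, the AP-1 motif, in Lif.
Vegfa: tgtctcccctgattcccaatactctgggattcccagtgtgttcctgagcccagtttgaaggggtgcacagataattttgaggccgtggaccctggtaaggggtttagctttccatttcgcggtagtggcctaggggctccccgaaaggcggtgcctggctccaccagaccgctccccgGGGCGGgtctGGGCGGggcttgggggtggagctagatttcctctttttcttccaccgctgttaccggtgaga
Csf1: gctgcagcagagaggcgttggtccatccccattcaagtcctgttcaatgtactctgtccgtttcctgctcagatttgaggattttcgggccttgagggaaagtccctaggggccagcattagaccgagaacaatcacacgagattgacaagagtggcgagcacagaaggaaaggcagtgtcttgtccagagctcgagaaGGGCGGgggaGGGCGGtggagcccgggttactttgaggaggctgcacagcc
Lif: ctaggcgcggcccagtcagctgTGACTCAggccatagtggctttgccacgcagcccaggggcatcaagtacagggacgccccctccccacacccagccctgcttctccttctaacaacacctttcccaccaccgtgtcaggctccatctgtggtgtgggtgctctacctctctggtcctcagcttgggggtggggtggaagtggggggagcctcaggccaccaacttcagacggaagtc
Such matches are descriptions of letters and not of binding. Windows of 300 bases, 250 before and 50 after a start, were listed for 7 of the 10 genes, in 9 windows. Hbegf, Ereg and Pdgfb had none listed, and Vegfa and Pdgfa each had more than a single window. On either strand GGGCGG was found in 7 of the 9 windows, those of Areg, Csf1, Pdgfa, Tgfa and Vegfa, against 35.7% of 32851 windows of all genes. TGANTCA was found in 2 of the 9, those of Igf1 and Lif, against 7.81% of all windows. The hypoxia motif core ACGTG was in 1 window, the second start of Vegfa, against 19.6%, and the STAT motif TTCNNNGAA was in 0 of 9, against 8.30%. In the stretches shown no match overlapped another.

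Among the EGF family ligands Hbegf, heparin-binding EGF-like growth factor, was the one expressed at a measurable level. It lies on chromosome 18 at 36504927 to 36515805 on the minus strand (mm10, GENCODE vM21). Hbegf was at 63.2, 64.9, 36.1 and 38.2 CPM in IL5-Tg replicates 1, 2, 3 and 4, against 14.3, 10.2 and 7.47 CPM in WT replicates 1, 2 and 3. All IL5-Tg libraries lay above all WT libraries, and the groups did not overlap. The means were 50.6 ± 15.6 CPM (SD, n = 4) in IL5-Tg and 10.7 ± 3.41 CPM (SD, n = 3) in WT libraries. This was a 4.73-fold difference (log2 fold change 2.24, SE 0.36, adjusted p by edgeR 0.0306). Hbegf ranked 33 of 12428 genes by p, and 98.0% of the genes tested had a smaller fold change in size.

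The direction and size of the Hbegf difference held when single libraries were left out, but the call mostly did not. The log2 fold change lay between 2.07 and 2.52 over the 7 fits without 1 library. By edgeR the adjusted p was 0.128 without IL5-Tg replicate 1, 0.128 without replicate 2, 0.0589 without replicate 3 and 0.0709 without replicate 4. It was 0.0994 without WT replicate 1, 0.0612 without WT replicate 2 and 0.0205 without WT replicate 3. Summed fibroblast markers and several macrophage markers were lowest in WT replicate 3. Leaving out a library also removes a sample from the test. By limma-voom with all 7 libraries Hbegf was not called either (log2 fold change 2.05, adjusted p 0.258), and DESeq2 called it (adjusted p 1.31e-06). Counted in units of the most common low count, Hbegf stood at 674, 845, 495 and 184 in IL5-Tg replicates 1, 2, 3 and 4. It stood at 47.2, 12.1 and 6.58 in WT replicates 1, 2 and 3. These units are not scaled for depth. After division by these low counts the log2 fold change was 2.19 (edgeR adjusted p = 0.0109). Scaling by library size largely undoes this division apart from rounding, so that value is no check on the unlike low counts.

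The summed markers of some other cells did not overlap between the genotypes either. The 8 muscle fibre markers summed to 333 to 1016 CPM in IL5-Tg libraries, against 57.8 to 270 CPM in WT libraries. The 7 mast cell and basophil markers summed to 3.07 to 30.3 CPM in IL5-Tg libraries, against 77.7 to 110 CPM in WT libraries. Fibroblast, macrophage and endothelial lists overlapped between the genotypes. The eosinophil granule genes Prg2, Ear1 and Ear6 were called higher in IL5-Tg, as Hbegf was. Of the other eosinophil markers, Epx, Ear2 and Siglecf had log2 fold changes of 1.59, 1.79 and 0.43. Ccr3 and Il5ra went the other way, at -0.59 and -0.97, and none of these other markers passed the test. The part of any of these cells or genes in the Hbegf level was not tested. In bulk RNA of sorted cells, a change in the share of a cell type and a change of RNA per cell cannot be told apart.

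The other EGF family ligands were at the limit of detection. Areg, amphiregulin, had 36 reads over all 7 libraries, at 0 to 0.986 CPM in IL5-Tg and 0 to 0.739 CPM in WT libraries. Ereg, epiregulin, had 7 reads, all of them in WT replicate 1, and Tgfa, transforming growth factor alpha, had 20 reads in 3 libraries. With a floor of 3 times the count seen most often among weakly detected genes, a count of 0 allows up to 0.219 to 0.623 CPM in IL5-Tg and 0.906 to 3.40 CPM in WT libraries. The nonzero counts of these ligands in WT replicates 1 and 2 were 0.4 to 1.63 times that most common count. Differences of these 3 ligands were therefore not detectable at this depth. In an edgeR fit without a count filter, over 16098 genes, their adjusted p was 0.950 for Areg, 0.636 for Ereg and 0.810 for Tgfa. Floors cover counting error only.

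The wider EGF family gave no further call. Of the 11 EGF family ligands listed 2 were tested, Hbegf and the neuregulin Nrg2. Nrg2 stayed at or below 1.25 CPM in IL5-Tg and 0.0604 CPM in WT libraries (log2 fold change 4.66, SE 1.59, adjusted p by edgeR 0.398). Of 5 tested receptors and negative regulators 0 passed the test. The receptor gene Egfr averaged 9.47 ± 4.68 CPM (SD, n = 4) in IL5-Tg and 10.2 ± 8.99 CPM (SD, n = 3) in WT libraries. Egfr had no read in WT replicate 3. The genes with the smallest p there were the coreceptor Erbb2, at a log2 fold change of 0.95, and the EGFR inhibitor Lrig1, at 0.76.

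Of 12 tested genes of proteases that release or mature such ligands, and their cofactors, 0 passed the test. Adam17, the main sheddase of EGF family ligands, averaged 51.4 ± 6.05 CPM (SD, n = 4) in IL5-Tg and 52.3 ± 10.8 CPM (SD, n = 3) in WT libraries, a log2 fold change of -0.03 ± 0.24 (SE). Furin, a convertase that cleaves precursor proteins, was at 408, 569, 550 and 374 CPM in IL5-Tg replicates 1, 2, 3 and 4, against 203, 143 and 276 CPM in WT replicates 1, 2 and 3. The groups did not overlap, and the log2 fold change was 1.198 with an SE of 0.30 (adjusted p by edgeR 0.183). Adam19, a related metalloprotease, was at 422 ± 88.1 CPM (SD, n = 4) in IL5-Tg and 220 ± 79.5 CPM (SD, n = 3) in WT libraries (log2 fold change 0.94, adjusted p by edgeR 0.340). DESeq2 called Furin, with the same direction.

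Vegfa, which encodes the main growth factor of blood vessels, was the most abundant of the 10 in IL5-Tg libraries by reads per kilobase. It lies on chromosome 17 at 46016993 to 46032369 on the minus strand, behind the promoter printed above. Vegfa was at 261, 271, 162 and 191 CPM in IL5-Tg replicates 1, 2, 3 and 4, against 76.2, 23.7 and 139 CPM in WT replicates 1, 2 and 3. Every IL5-Tg library lay above every WT library, and WT replicate 3 was nearest to the IL5-Tg libraries. The means were 221 ± 53.1 CPM (SD, n = 4) in IL5-Tg and 79.5 ± 57.6 CPM (SD, n = 3) in WT libraries (log2 fold change 1.48, SE 0.51, adjusted p by edgeR 0.403). The difference thus did not pass the test. Without WT replicate 3 it did, at a log2 fold change of 2.18 and an adjusted p by edgeR of 0.0444, and without WT replicate 2 the log2 fold change was 1.06 (edgeR adjusted p = 0.175).

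The groups of 3 of the 7 tested growth factors did not overlap, Hbegf, Vegfa and Csf1, where 9.36% of all genes tested had groups that did not overlap, 4.76% with IL5-Tg higher and 4.6% with IL5-Tg lower. Some sample titles share a start across the genotypes, which may or may not mark related mice. The order within such pairs follows from the lack of overlap, so their levels are no further check of it. Vegfa was at 162 CPM in IL5-Tg replicate 3 against 76.2 CPM in WT replicate 1, and at 191 CPM in IL5-Tg replicate 4 against 23.7 CPM in WT replicate 2. Hbegf was at 36.1 against 14.3 CPM and at 38.2 against 10.2 CPM in the same pairs, IL5-Tg first in each. With the start of the titles as a block the log2 fold changes were 2.04 for Vegfa (edgeR adjusted p = 0.0910) and 1.61 for Hbegf (edgeR adjusted p = 0.181).

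**Figure D2:**
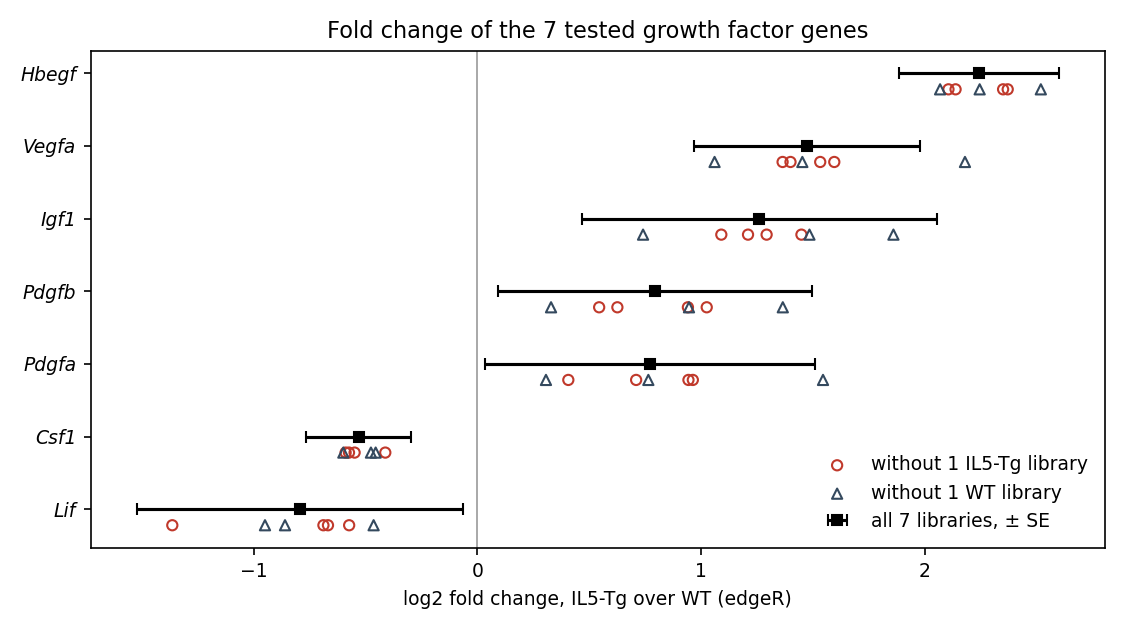
Log2 fold change of IL5-Tg over WT (horizontal axis) for the 7 tested growth factor genes, as squares with SE from all 7 libraries and as open circles and triangles from fits without 1 IL5-Tg or 1 WT library. The sign of all 7 is the same in every such fit, and the values for Vegfa, Igf1, Pdgfa and Pdgfb move most when a WT library is left out.

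The PDGF chains, which form dimers that act on fibroblasts and pericytes, were low. Pdgfa was at 12.1, 4.46, 4.08 and 7.996 CPM in IL5-Tg replicates 1, 2, 3 and 4, against 4.11, 7.60 and 0.851 CPM in WT replicates 1, 2 and 3. Pdgfb was at 12.7, 6.53, 4.37 and 13.7 CPM in IL5-Tg replicates 1, 2, 3 and 4, against 8.82, 6.23 and 1.04 CPM in WT replicates 1, 2 and 3. Both overlapped between the genotypes, and WT replicate 3 was the lowest library for each. There Pdgfa and Pdgfb were at 0.75 and 0.917 times the most common low count, under the floor of 3 times that count. The log2 fold changes were 0.77 ± 0.74 for Pdgfa (SE; edgeR adjusted p = 0.866) and 0.79 ± 0.70 for Pdgfb (SE; edgeR adjusted p = 0.849). Without WT replicate 3 they were 0.31 for Pdgfa and 0.33 for Pdgfb. Pdgfa was at 1.55 without WT replicate 2 and Pdgfb at 1.37 without WT replicate 1. With the start of the titles as a block they were 0.03 for Pdgfa and 0.06 for Pdgfb. In the annotation 813 bases of Pdgfa exons overlap exons of 6330403L08Rik on the other strand, and no source used here gives the strand setting of the counting, so some of those reads may come from that gene.

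Of 15 tested genes of the VEGF and PDGF families and their receptors, these 3 ligands included, 0 passed the test. All 15 log2 fold changes were above 0, with a median of 0.75, where 6472 of 12428 genes tested were above 0. Without WT replicate 3 the median was 0.17, 12 of 15 were above 0 and Vegfa was called. The median was 1.08 without WT replicate 1 and 1.06 without WT replicate 2. With the start of the titles as a block it was 0.33. Flt1, a VEGF receptor, was at 9.495 ± 4.42 CPM (SD, n = 4) in IL5-Tg and 3.49 ± 3.06 CPM (SD, n = 3) in WT libraries, with no read in WT replicate 3 (log2 fold change 1.44, adjusted p by edgeR 0.793). Flt4, another VEGF receptor, was at 2.14 ± 0.638 CPM (SD, n = 4) in IL5-Tg and 0.322 ± 0.558 CPM (SD, n = 3) in WT libraries (edgeR adjusted p = 0.670). The PDGF receptors Pdgfra and Pdgfrb, which mark fibroblasts and pericytes, had reads in all libraries but WT replicate 3, where both were at 0.

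Igf1, insulin-like growth factor 1, was lowest in WT replicate 3, as the PDGF chains were. Igf1 was at 61.9, 33.1, 50.4 and 72.0 CPM in IL5-Tg replicates 1, 2, 3 and 4, against 37.8, 28.2 and 1.89 CPM in WT replicates 1, 2 and 3. The groups overlapped, since WT replicate 1 lay above IL5-Tg replicate 2. The means were 54.3 ± 16.7 CPM (SD, n = 4) in IL5-Tg and 22.6 ± 18.6 CPM (SD, n = 3) in WT libraries (log2 fold change 1.26, SE 0.79, adjusted p by edgeR 0.751). Without WT replicate 3 it was 0.74 (edgeR adjusted p = 0.551), and without WT replicate 1 it was 1.86 (edgeR adjusted p = 0.559). WT replicate 3 had 20 Igf1 reads, or 1.67 times the most common low count of that library.

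The genes whose profile over the 7 libraries was most like that of Igf1 were Podxl, Cpxm1 and the collagen gene Col14a1. Likeness was the root mean square distance between standardised log2(CPM + 1) profiles, at 0.0917, 0.0944 and 0.0948 SD. Like Igf1, Col14a1 was at 46.9, 20.6, 27.4 and 54.8 CPM in IL5-Tg replicates 1, 2, 3 and 4, against 20.2, 20.4 and 0 CPM in WT replicates 1, 2 and 3. The part of fibroblast or macrophage RNA in the Igf1 level was not tested. Of the other tested genes of the IGF system 0 of 10 passed. Igf1r, the receptor of IGF-1, was at 118 ± 20.8 CPM (SD, n = 4) in IL5-Tg and 207 ± 64.3 CPM (SD, n = 3) in WT libraries (log2 fold change -0.80, adjusted p by edgeR 0.369). It was highest, at 281 CPM, in WT replicate 3, where Igf1 was lowest. Igf2r, which clears IGF-2, was at a log2 fold change of 0.51, and did not pass.

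**Figure D3:**
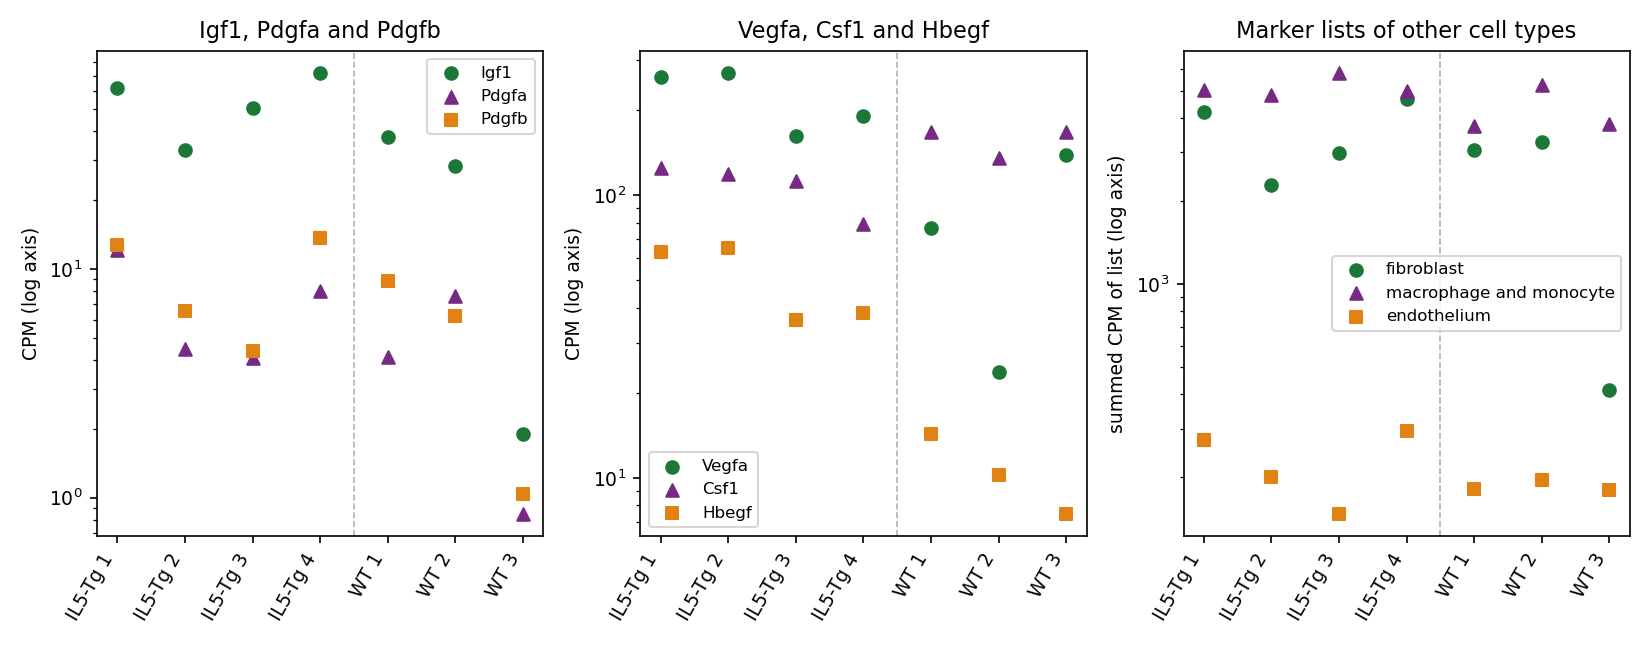
CPM in each of the 7 libraries on log axes, with IL5-Tg libraries left of the dashed line, for Igf1, Pdgfa and Pdgfb (left), Vegfa, Csf1 and Hbegf (middle) and the summed markers of 3 other cell types (right). Igf1, Pdgfa, Pdgfb and the fibroblast markers are lowest in WT replicate 3, where Csf1 is at 167 CPM and Vegfa at 139 CPM. The macrophage and monocyte sum, of which Adgre1 is the largest part, is not lowest there. Its single markers C1qa, C1qb, C1qc, Mrc1, Cd68 and Ms4a7 are.

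Csf1, the growth factor of macrophages, had the highest mean of the 10 in WT libraries by reads per kilobase, though not in WT replicate 3, and it was lower in every IL5-Tg library than in any WT library. It lies on chromosome 3 at 107741048 to 107760469 on the minus strand. Csf1 was at 124, 119, 112 and 79.1 CPM in IL5-Tg replicates 1, 2, 3 and 4, against 167, 136 and 167 CPM in WT replicates 1, 2 and 3. The means were 109 ± 20.3 CPM (SD, n = 4) in IL5-Tg and 157 ± 18.2 CPM (SD, n = 3) in WT libraries. The log2 fold change was -0.53 with an SE of 0.24 (adjusted p by edgeR 0.544), which did not pass the test, and it lay between -0.60 and -0.41 over the fits without 1 library.

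Of the 6 tested genes of the CSF1 system and the colony-stimulating factors 0 passed. Csf1r, the CSF1 receptor, was at 927 ± 128 CPM (SD, n = 4) in IL5-Tg and 715 ± 249 CPM (SD, n = 3) in WT libraries (log2 fold change 0.37, adjusted p by edgeR 0.815). The macrophage and monocyte markers summed to 3809 CPM in WT replicate 3, where Csf1r was at 785 CPM, and they went different ways there. Of the 7 libraries WT replicate 3 had the highest level of Adgre1, at 2459 CPM. The lowest levels of C1qa, C1qb, C1qc, Mrc1, Cd68 and Ms4a7 were there too, at 68.4, 99.8, 48.8, 46.7, 109 and 10.8 CPM. Csf1r, Ly6c2 and Ccr2 were neither highest nor lowest there. Csf3r, the receptor of a neutrophil growth factor, was at 17.5 ± 10.3 CPM (SD, n = 4) in IL5-Tg and 54.2 ± 23.8 CPM (SD, n = 3) in WT libraries (log2 fold change -1.63, adjusted p by edgeR 0.327). Its WT levels were 73.5 CPM in replicate 1, 61.3 CPM in replicate 2 and 27.6 CPM in replicate 3. Neutrophil markers summed to 31.8 to 42.0 CPM in IL5-Tg libraries, against 373, 129 and 16.4 CPM in WT replicates 1, 2 and 3, and their part in the Csf3r level was not tested. The genes Csf2 and Csf3, which encode the other colony-stimulating factors, did not pass the count filter.

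Lif, leukaemia inhibitory factor, was low in both genotypes. Lif was at 1.78, 1.23, 1.82 and 4.67 CPM in IL5-Tg replicates 1, 2, 3 and 4, against 5.80, 3.59 and 3.02 CPM in WT replicates 1, 2 and 3. IL5-Tg replicate 4 lay within the range of the WT libraries and the other 3 IL5-Tg libraries lay below it. The level in WT replicate 3 was 2.67 times the most common low count, under the floor of 3 times that count. The log2 fold change was -0.79 with an SE of 0.73 (adjusted p by edgeR 0.856), and it was -1.36 without IL5-Tg replicate 4 (edgeR adjusted p = 0.692).

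Related cytokines of the IL-6 family lay on both sides of 0, and 0 of 9 tested members passed by edgeR. Osm, oncostatin M, was at 318, 408, 304 and 180 CPM in IL5-Tg replicates 1, 2, 3 and 4, against 110, 76.3 and 162 CPM in WT replicates 1, 2 and 3. Its groups did not overlap, and the log2 fold change was 1.38 with an SE of 0.35 (adjusted p by edgeR 0.188). Il6, interleukin 6, was at 8.43, 1.92, 7.58 and 4.72 CPM in IL5-Tg replicates 1, 2, 3 and 4, against 57.6, 7.39 and 26.9 CPM in WT replicates 1, 2 and 3 (log2 fold change -2.44, SE 0.67, adjusted p by edgeR 0.256). Its groups overlapped, as IL5-Tg replicates 1 and 3 lay above WT replicate 2. DESeq2 called both, Osm higher and Il6 lower. The receptor genes Lifr, for LIF, and Il6st, for gp130, were at log2 fold changes of 0.58 and 0.50, and neither passed.

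Per kilobase of annotated exon, the order of the 10 transcripts was almost the same in the genotypes. Levels as RPKM, which divides CPM by exon length, were 51.6 ± 12.4 for Vegfa, 20.6 ± 3.83 for Csf1, 10.5 ± 3.22 for Hbegf and 5.49 ± 1.68 for Igf1 in IL5-Tg libraries (SD, n = 4). In WT libraries they were 29.7 ± 3.44 for Csf1, 18.6 ± 13.4 for Vegfa, 2.29 ± 1.88 for Igf1 and 2.204 ± 0.706 for Hbegf (SD, n = 3). The WT means of Csf1 and Vegfa stood in the other order, as did those of Igf1 and Hbegf, and both WT differences were smaller than the SD of Vegfa and of Igf1. In WT replicate 3 Vegfa was at 32.4 RPKM and Csf1 at 31.7 RPKM, the order of the IL5-Tg libraries. Pdgfa, Pdgfb, Lif, Areg, Tgfa and Ereg followed in this order in both genotypes, at 2.29 RPKM and below in IL5-Tg and 1.34 RPKM and below in WT libraries. Areg, Tgfa and Ereg had 36, 20 and 7 reads over all libraries. Their order therefore rests on counts at the limit of detection and shows no likeness of the genotypes. Pdgfa and Pdgfb did not differ from each other beyond their spread. Exon lengths are those of all annotated exons together and may exceed those of the transcripts present.

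Other repair factors and genes that respond to growth factor signalling were listed with the 10. The median log2 fold change of the 81 tested genes outside the 10 was 0.36, with 63 above 0, against 0.03 over all genes tested. List medians, members included, moved when single libraries were left out. Without WT replicate 3 they fell from 0.17 to -0.27 for the IGF system and from 0.50 to 0.03 for the IL-6 family. They fell from 0.42 to 0.004 for other repair growth factors and from 0.45 to 0.25 for ERK response genes. The CSF1 system rose from 0.18 to 0.29, and EGF family receptors and negative regulators rose from 0.20 to 0.21. Other libraries moved the medians as well. The IGF system was at 0.79 without WT replicate 2, and ERK response genes were at 0.98 without WT replicate 1. Other repair growth factors were at -0.09 without IL5-Tg replicate 4, and the CSF1 system was at -0.03 without IL5-Tg replicate 2. Bmp2, a bone morphogenetic protein, was at 1.87, 0, 1.46 and 1.51 CPM in IL5-Tg replicates 1, 2, 3 and 4, against 12.02, 8.55 and 7.84 CPM in WT replicates 1, 2 and 3. The groups did not overlap, and the log2 fold change was -2.96 with an SE of 0.95 (adjusted p by edgeR 0.350, and 0.0354 in the newer edgeR fit). DESeq2 called Bmp2 lower as well (adjusted p 0.0491). It was not called by limma-voom (adjusted p 0.258) or with the start of the titles as a block (edgeR adjusted p = 0.854). Grn, progranulin, was at 1666 ± 180 CPM (SD, n = 4) in IL5-Tg and 1098 ± 516 CPM (SD, n = 3) in WT libraries (edgeR adjusted p = 0.658).

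Of 16 genes that respond to ERK, the kinase downstream of EGFR and most receptors of these factors, 0 passed the test, and 13 had a log2 fold change above 0. The ERK phosphatase gene Dusp6 was at 79.5, 101, 74.6 and 75.5 CPM in IL5-Tg replicates 1, 2, 3 and 4, against 68.2, 39.7 and 38.6 CPM in WT replicates 1, 2 and 3. Its groups did not overlap (log2 fold change 0.76, SE 0.27, adjusted p by edgeR 0.430). The related Dusp4 was at 1.81 ± 0.648 CPM (SD, n = 4) in IL5-Tg and 0.181 ± 0.314 CPM (SD, n = 3) in WT libraries (edgeR adjusted p = 0.561). The immediate early gene Egr1 was at a log2 fold change of 0.25 and Ier3 at 0.00039, and neither passed.

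**Figure D4:**
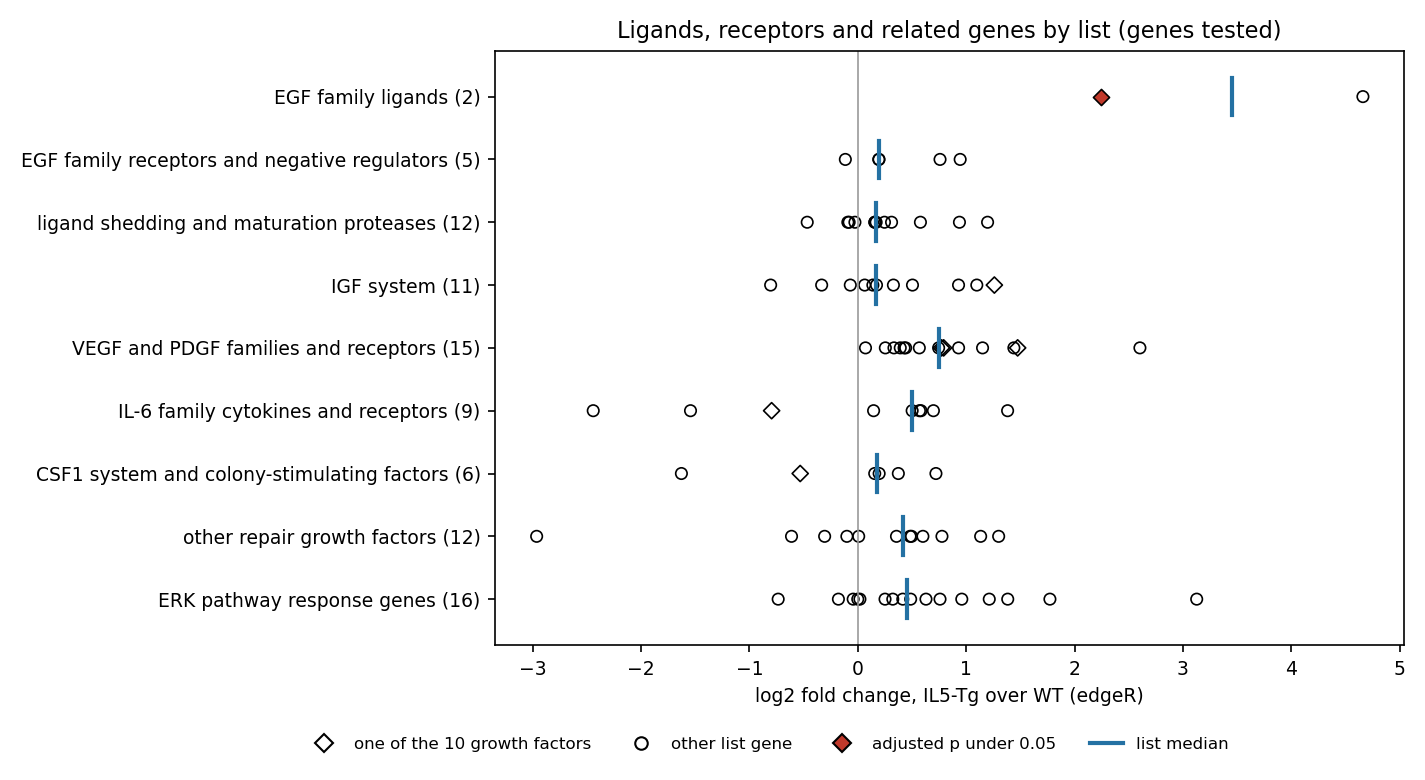
Log2 fold change of IL5-Tg over WT (horizontal axis) for every tested gene of 9 lists of ligands, receptors and related genes, with the number tested in parentheses, diamonds for the 10 growth factors and a bar at each list's median. Hbegf is the gene filled as called, and the genes of the VEGF and PDGF list all lie above 0.

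The profile most like that of Hbegf over the 7 libraries was that of Sec14l2, followed by Ccnd2 and Sox6, at distances of 0.171, 0.178 and 0.193 SD. Ccnd2, a D-type cyclin, was at 31.4 ± 3.26 CPM (SD, n = 4) in IL5-Tg and 11.4 ± 3.19 CPM (SD, n = 3) in WT libraries (edgeR adjusted p = 0.0912). Nearest to Vegfa were Mxd1, Fbxo21 and Dach1, at distances of 0.171, 0.205 and 0.222 SD. Mxd1, a transcription factor of the MAX network, was at 1114 ± 155 CPM (SD, n = 4) in IL5-Tg and 706 ± 290 CPM (SD, n = 3) in WT libraries, lowest in WT replicate 2 as Vegfa was. Nearest to Csf1 were Slc16a6, Ap4m1 and Mtcp1, at distances of 0.245, 0.275 and 0.279 SD. None of these neighbours of Vegfa, Csf1, Hbegf and Igf1 passed the test by edgeR.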

How the data were processed

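RNA of sorted cells was sequenced from 4 IL5-Tg and 3 WT libraries, as stranded mRNA libraries with short paired reads per the labels' protocols. The deposited values are raw counts of reads per gene symbol, without normalization. Per the submitters' processing notes, bcl2fastq 2.20, Bowtie, STAR and the mm10 build were used; the counting program, its annotation and strand setting are unstated in those notes and the labels. The 2 rows that name no gene, 9.15% to 18.2% and 0.750% to 0.943% of a library, were left out. Columns were matched to samples by title.

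The test was edgeR 4.0.16 in R 4.3.3 (TMM, filterByExpr, glmQLFit in its legacy form with robust estimation, genotype as the only term), checked on simulated counts. SE is the fold change over the root of F. Alternatives used DESeq2 1.42.0, limma 3.58.1 voom with quality weights, other scalings and filters, division by the most common low count, a block, and each library left out. Promoters came from RefSeq, gene positions from GENCODE vM21, both on GRCm38. Genes outside the 10 were named by rule: called genes of each list, or else the 2 with the smallest p, and the 3 nearest profiles of the 4 most abundant members. Members, lists and tests were chosen with earlier results of these data known. Genes named beyond that rule (Nrg2, Egfr, Adam17, Pdgfra, Pdgfrb, Lifr, Il6st, Csf2, Csf3, Egr1, Ier3 and single marker genes) were chosen after their values were seen.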

Additional observations from a re-analysis of the deposited data

Results flagged for a closer look

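Of 25 genes examined for a library far from the other 3 of the IL5-Tg group, 3 had one, where chance flags about 1 in 20 groups. Adam19 was at 554 CPM in IL5-Tg replicate 2, against 376 to 382 CPM in the other IL5-Tg libraries. Igf1r was at 149 CPM in IL5-Tg replicate 2, against 107 to 109 CPM in the others. Flt4 was at 3.09 CPM in IL5-Tg replicate 1, against 1.75 to 1.87 CPM in the others. None of the growth factors examined had such a library, and Ereg, at 0 in all IL5-Tg libraries, could not be examined.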

How the results depend on the processing

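Over 17 other settings the 7 tested growth factors gave 116 log2 fold changes. None changed sign, 107 stayed on the same side of the threshold, 8 of Hbegf lost the call and 1 of Vegfa gained it. The count of called growth factors was 1 in the main test, 0 with limma-voom (Hbegf adjusted p = 0.258), 0 with the titles' start as block, and 0 to 2 without 1 library. Over all genes 51 were called, 225 by DESeq2, 22 by limma-voom, 100 after division by the most common low count, 97 in the newer edgeR fit (added after seeing the data), and 16 to 97 without 1 library. The split was 42 higher and 9 lower, and 30 higher and 31 lower without WT replicate 2. The cause of these shifts was not tested. The order of the 10 levels per kilobase was the same with plain library sizes. No paired analysis was possible by replicate number because the numbers come from accession order and pair no samples. A block on the shared start of titles, whose meaning the labels do not give, could be fitted. With it Hbegf was at 1.61 (edgeR adjusted p = 0.181) and 52 genes were called. Depth limits Areg, Ereg and Tgfa, and the common biological coefficient of variation of 52.5% limits what 7 libraries can show.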
